A study of Mus musculus with 10 samples.

Results

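The genes described here encode the factors that start and extend protein chains on the ribosome, and the enzymes that load tRNAs with amino acids. They were taken as the probe sets with 1 platform symbol that begins with Eif or Eef and a digit, or that names an aminoacyl-tRNA synthetase. The rule uses names only, no measured value, though it was chosen with earlier results of these data known. It gave 71 genes of the 8252 with such a probe set on the array, measured by 93 of 12488 probe sets. Of the 93, 76 probe sets (64 genes) were bright enough to be tested with 7453 probe sets in all, and 17 were not. The 7 genes with no tested probe set were Eef1g, Eef2k, Eif2ak2, Eif2ak4, Eif4e, Eif4enif1 and Eif4h. Eif1, the paralogue of Eif1b, had no probe set with its own single symbol and was not analysed here.

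The samples were total RNA from mouse hepatocytes, and each of the 10 was hybridised to 1 array. The groups were 2 normoxic untreated arrays, 2 normoxic adeno-treated arrays, 3 hypoxic adeno-treated arrays, and 3 hypoxic arrays labelled HIF-1alpha null. The hypoxic adeno-treated arrays are called wild type here from the title of the series, since their own labels name no genotype. The HIF-1alpha protein is the part of the HIF-1 transcription factor whose stability depends on oxygen. No normoxic null group was among the samples, so the comparison of genotypes holds in hypoxia only. The sources used here do not give the strain and age of the mice, what the adeno vector carried, how HIF-1alpha was removed, whether null-labelled cells also received adeno, the normoxic cells' genotype, or the level and length of hypoxia. Nor do they say whether arrays stand for separate cultures, so a p-value measures only the spread between these samples, which may be technical.

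Translation starts when eIF2 brings the initiator tRNA to the small ribosomal subunit, eIF4 factors bring the capped mRNA, and eIF3, eIF1 and eIF1A help to find the start codon. Cells lower initiation by phosphorylating the alpha subunit of eIF2, which blocks its exchange factor eIF2B, and through the 4E-BP proteins, which hold back the cap-binding protein eIF4E when mTORC1 activity is low. Low oxygen and stress of the endoplasmic reticulum are known to engage both controls, and hepatocytes, which secrete most plasma proteins, make heavy use of the machinery.

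The targeted gene was measured by a pair of probe sets, and both were above the wild-type mean on null-labelled arrays. They read 1169 ± 422 and 1247 ± 400 (SD, n = 3) there, against 792 ± 147 and 837 ± 224 (SD, n = 3) on hypoxic wild-type arrays (limma adjusted p = 0.999 for both). The sources do not place the deletion against these Hif1a probes, which therefore cannot check the genotype, and every difference by genotype below is between arrays as labelled. Hepatocyte markers were bright on all arrays (summed intensity 32644 to 53599 over 12 probe sets), and no marker probe set was at 0. Markers of stellate cells and fibroblasts, summed over 16 probe sets, ran from 10640 to 12596 on the normoxic arrays. They ran from 19155 on number 1 to 6759.1 on number 3 in hypoxic wild type, and from 17546 to 6446.2 in the null-labelled group. Biliary markers (4 probe sets) ran from 2792.2 to 151.5 and from 1867.4 to 167.6 over the same hypoxic arrays. On normoxic arrays they also fell with the number, from 996.5 to 322.3 in untreated and from 701.6 to 279.8 in adeno-treated cells. Sums of macrophage and endothelial markers were highest on number 1 in every group, and those of lymphocyte markers lowest. Hepatocyte markers were lowest on number 1 and highest on number 3 in both hypoxic groups (32644 to 50718 and 35405 to 44679). The same number 3 arrays had the highest 18S ribosomal control signal, a mean log2 signal of 12.33 and 12.18, while the other 8 arrays read 5.979 to 10.25. The part of these differences in the results was not tested, and in bulk RNA fewer cells of a type and less RNA per cell cannot be told apart.

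The median of the set lay close to that of all probe sets in each comparison. Tested member probe sets had a median log2 change of -0.03 in hypoxic wild type against normoxic adeno-treated cells (-0.02 over all 7453 probe sets), 0.02 in null-labelled against wild-type hypoxic cells (0.02 over all), -0.02 in null-labelled hypoxic against normoxic adeno-treated cells (0.01 over all) and 0.07 in adeno-treated against untreated normoxic cells (-0.01 over all). In limma without a block, 0 of 76 passed an adjusted p of 0.05 in each of the 4 comparisons, where 0.322%, 0%, 0.429% and 0% of all probe sets passed, in the order above. At an unadjusted p under 0.05, the members numbered 8, 2, 10 and 7 in the same order (10.5%, 2.63%, 13.2% and 9.21% of 76), beside 7.93%, 3.38%, 9.74% and 8.32% of all probe sets. The shares were thus near the background in each comparison.

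**Figure D1:**
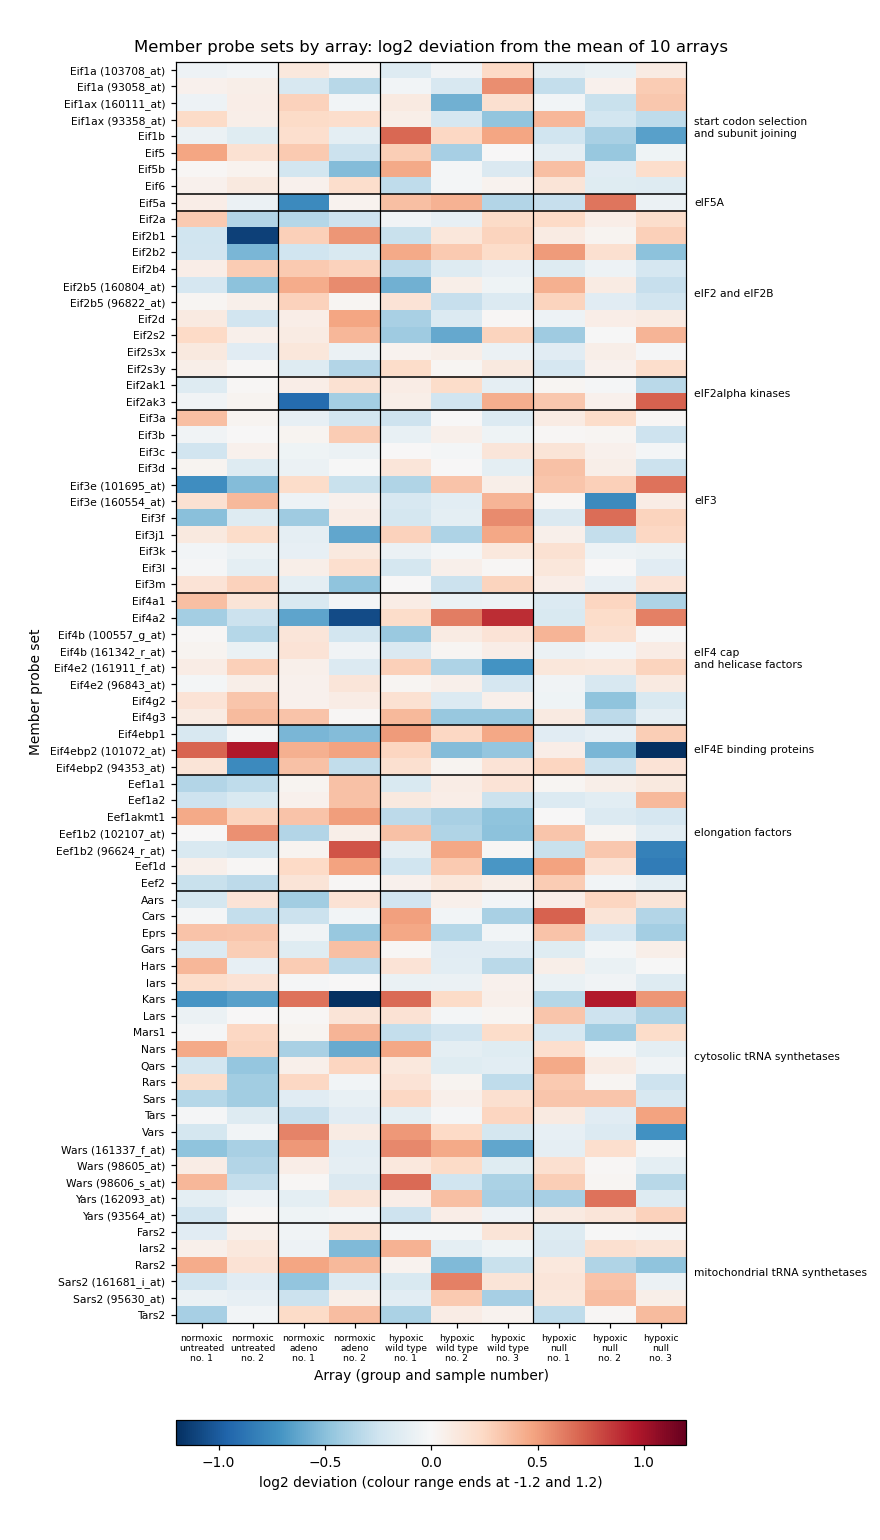
Each row is 1 of the 76 tested member probe sets, ordered by role, and each column 1 of the 10 arrays, with colour for the log2 deviation of an array from the mean of all 10 (red above, blue below). Most rows stay pale, while Eif4a2 and Eif4ebp1 are red on the 3 hypoxic wild-type arrays and Eef1akmt1 is blue there.

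The labels number the samples in each group, and a fit with that number as a replicate block was the alternative (limma, same threshold). No normoxic array has number 3. In the block fit the number 3 arrays thus entered hypoxic against normoxic comparisons only through the difference between the hypoxic groups. Whether normoxic and hypoxic arrays of the same number belong together was not settled. With the block, 4 members passed in hypoxic wild type against normoxic adeno-treated cells: Eif4a2, Eif4ebp1 and Nars higher and Eef1akmt1 lower. Of all probe sets, 1.49% were higher and 0.738% lower in that fit. In null-labelled against wild-type hypoxic cells 1 member passed, Eif1b, lower, beside 0.121% of all probe sets. In null-labelled hypoxic against normoxic adeno-treated cells Eif4a2 and Nars passed, both higher, beside 2.95% of all probe sets. None of the 76 passed in adeno-treated against untreated normoxic cells, where 0.107% of all were higher and 0.148% lower. At an unadjusted p under 0.05 with the block, 14 members passed in the first comparison (18.4%, against 19.1% of all). Members whose groups of arrays did not overlap numbered 23, 5, 25 and 36 of 76 in the 4 comparisons, beside 24.8%, 6.78%, 25.9% and 48.9% of all probe sets. The comparisons are not independent: both of hypoxic with normoxic cells and that of adeno treatment share the normoxic adeno-treated arrays, and that of the hypoxic groups shares arrays with the first pair.

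Eif4a2, which encodes one of the RNA helicases that unwind the leader of an mRNA, had the largest member difference in hypoxic wild type against adeno-treated controls. Its intensity was 1007.1 and 738.0 on the normoxic adeno-treated arrays, 1178.2 and 1306.5 on the untreated ones, 1816.5, 2397.5 and 2882.9 on hypoxic wild-type arrays, and 1374.8, 1822.7 and 2370.8 on null-labelled ones. All 6 hypoxic arrays were above all 4 normoxic arrays, and the number 3 arrays, which have the highest 18S signal, were the highest in both hypoxic groups. Hypoxic wild type exceeded normoxic adeno-treated cells 2.69-fold (2366 ± 534, n = 3, against 873 ± 190, n = 2; SD). That was a log2 change of 1.43 (SE 0.27, limma adjusted p = 0.0843), and 1.25 (SE 0.19, adjusted p = 0.00799) with the replicate block. Null-labelled hypoxic cells were 2.09-fold above the same controls (log2 change 1.07, adjusted p = 0.191, and 0.0264 with the block). Leaving out adeno-treated number 2 or wild-type number 2 ended the first of these calls with the block, and leaving out adeno-treated number 2 or null-labelled number 2 or 3 the second. Null-labelled against wild type was -0.36 (SE 0.24, adjusted p = 0.999, and 0.527 with the block), with overlapping arrays and lower in 3 of 3 same-number pairs.

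Of the remaining cap and helicase factors, none passed in either fit in any of the 4 comparisons. The related helicase gene Eif4a1 had a log2 change of 0.09 (SE 0.21) in hypoxic wild type, at 350.1 and 391.2 on the normoxic adeno-treated and 423.1, 378.6 and 379.5 on the hypoxic wild-type arrays. Its probe set belongs to a class that may also bind related transcripts. Eif4g3, a scaffold protein of the cap complex, read 98.9 and 78.3 against 102.5, 55.1 and 55.1 (log2 change -0.35, SE 0.30), with overlapping arrays. Eif4g2, a scaffold used without the cap-binding protein, read 102.1 and 104.9 on adeno-treated, 112.7, 87.7 and 102.9 on hypoxic wild-type and 94.8, 69.1 and 86.3 on null-labelled arrays. Its difference between the hypoxic groups was -0.27 (SE 0.19), lower in 3 of 3 pairs with overlapping groups. The cap-binding gene Eif4e itself was too dim to be tested. Its relative Eif4e2 had a probe set at 151.9, 94.5 and 73.5 on hypoxic wild-type and 136.3, 135.9 and 150.2 on null-labelled arrays, a difference of 0.45 (SE 0.24) with overlap, while its second probe set gave -0.0044.

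Eif4ebp1 encodes 4E-BP1, the inhibitor of eIF4E that mTORC1 controls. It read 485.2 and 495.4 on normoxic adeno-treated arrays, 624.9 and 703.8 on untreated ones, 1020.6, 848.7 and 988.4 on hypoxic wild-type arrays and 647.5, 664.0 and 874.1 on null-labelled ones. The hypoxic wild-type arrays were above all 4 normoxic ones, while the null-labelled arrays overlapped both the untreated and the hypoxic wild-type arrays. Hypoxic wild type was 1.93-fold above normoxic adeno-treated cells (953 ± 91.4, n = 3, against 490 ± 7.21, n = 2; SD), a log2 change of 0.95 (SE 0.18, limma adjusted p = 0.101, and 0.0203 with the block). The call with the block held without wild-type number 3 and was lost without any other 1 of the 5 arrays compared. The adeno-treated arrays lay below the untreated ones. Against all 4 normoxic arrays the change was 0.73, and 0.65 with the block, and Eif4ebp1 passed in neither fit. Null-labelled against wild type was -0.39 (SE 0.16, adjusted p = 0.999, and 0.315 with the block), lower in 3 of 3 pairs, and null-labelled hypoxic against normoxic adeno-treated cells 0.55 (adjusted p = 0.343, and 0.0975 with the block).

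The related inhibitor gene Eif4ebp2 had a pair of tested probe sets that differed. The brighter read 568.7 and 680.7 on untreated, 469.6 and 486.2 on adeno-treated normoxic, 417.6, 240.7 and 250.4 on hypoxic wild-type and 366.9, 236.0 and 131.3 on null-labelled arrays. All 6 hypoxic arrays were below all 4 normoxic ones. Its log2 change was -0.70 (SE 0.38, adjusted p = 0.709) in wild type and -1.07 (SE 0.38, adjusted p = 0.378) in null-labelled cells against adeno-treated controls. The other probe set, at 94.9 ± 31.0 (SD, n = 2) and 99.7 ± 5.92 (SD, n = 3) in the first of these comparisons, gave 0.10, so the gene's probe sets did not point one way. Against all 4 normoxic arrays with the block, the brighter one passed in null-labelled cells (-1.01, adjusted p = 0.0352), where 3.66% of all probe sets were lower.

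**Figure D2:**
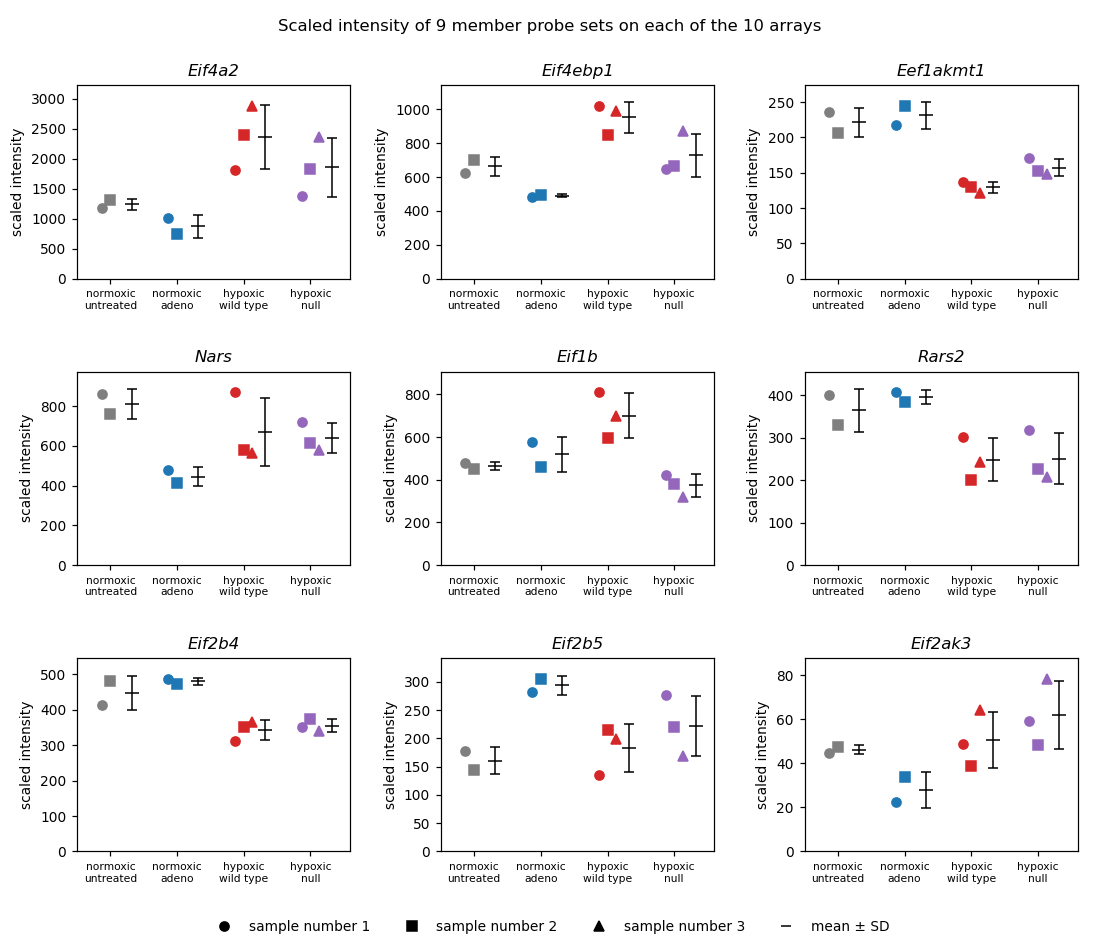
Each panel plots 1 of 9 member probe sets, with points for the scaled intensity (linear axis from 0) of single arrays in the 4 groups, shapes for the sample number, and black marks for group mean ± SD. Eif4a2 lies above every normoxic array on all 6 hypoxic arrays, and Eif1b on the 3 null-labelled arrays lies below the 3 hypoxic wild-type arrays.

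The eIF2 and eIF2B genes were grouped here with Eif2a and Eif2d, whose products are not subunits of either complex. The group held differences in both directions, and none passed in the 4 comparisons in either fit. eIF2B is the exchange factor that reloads eIF2 with GTP. In hypoxic wild type against adeno-treated controls, 3 of 10 tested probe sets had values above 0 and 7 below. Their median was -0.30 (-0.02 for all 7453), and 7 of the 10 had no overlap between groups (24.8% of all probe sets). Against all 4 normoxic arrays the median was -0.091, with 5 above 0 and 5 below. Only 2 of the 10 then had no overlap, beside 802 of all 7453 probe sets.

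Eif2b5, the catalytic subunit, read 177.5 and 144.2 on untreated, 282.1 and 305.8 on adeno-treated, and 135.7, 215.5 and 198.4 on hypoxic wild-type arrays. Against the adeno-treated controls this was a log2 change of -0.69 (SE 0.26, adjusted p = 0.516, and 0.22 with the block), against all 4 normoxic arrays -0.27 (adjusted p = 0.85). A second, brighter probe set of the gene read 616.9 and 518.2 on adeno-treated and 571.3, 420.6 and 452.9 on hypoxic wild-type arrays, with overlap and a change of -0.24 (SE 0.21). Eif2b4, the delta subunit, was lower on the 6 hypoxic arrays (312.7 to 375.4) than on the 4 normoxic ones (414.3 to 488.2), at -0.49 (SE 0.16, adjusted p = 0.439, and 0.107 with the block). Its probe set may also bind related transcripts. Eif2b2, the beta subunit, read 446.8 and 466.4 on adeno-treated and 725.8, 659.3 and 614.8 on hypoxic wild-type arrays, with untreated arrays at 451.6 and 360.4. The difference was 0.54 (SE 0.27, adjusted p = 0.675, and 0.0781 with the block), and it passed against all 4 normoxic arrays with the block (0.80, adjusted p = 0.0333). There 1.6% of all probe sets were higher. The null-labelled arrays, at 756.2, 604.8 and 373.5, spanned both groups.

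Eif2d, which can bring initiator tRNA without eIF2, read 312.3 and 412.1 on adeno-treated, 318.5 and 252.1 on untreated and 224.5, 263.8 and 299.4 on hypoxic wild-type arrays. The log2 change against adeno-treated controls was -0.45 (SE 0.20, adjusted p = 0.628), and the untreated arrays overlapped the hypoxic ones. Eif2s3x, which encodes the GTP-binding gamma subunit of eIF2, read 1007.3 and 872.9 on adeno-treated, 946.3, 965.0 and 872.8 on hypoxic wild-type and 835.5, 965.1 and 907.3 on null-labelled arrays. All these groups overlapped, with differences of -0.02 (SE 0.16) in hypoxic wild type and -0.04 (SE 0.14) between the hypoxic groups.

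The eIF2alpha kinases are the stress sensors of this control, and 2 of 4 could be tested. Eif2ak3, which encodes PERK, the kinase of the endoplasmic reticulum, was dim. It read 22.2 and 33.7 on adeno-treated, 44.8 and 47.6 on untreated, 48.8, 38.7 and 64.2 on hypoxic wild-type and 59.0, 48.3 and 78.4 on null-labelled arrays. The adeno-treated arrays were below all others, and the hypoxic wild-type arrays overlapped the untreated ones. The log2 change against adeno-treated controls was 0.76 (SE 0.31, adjusted p = 0.57) in wild type and 1.03 (SE 0.31, adjusted p = 0.301, and 0.112 with the block) in null-labelled cells. Eif2ak1, the heme-regulated kinase, read 196.2 and 210.9 on adeno-treated, 197.0, 215.6 and 171.4 on hypoxic wild-type and 187.5, 183.2 and 146.6 on null-labelled arrays, a change of -0.07 (SE 0.19) in wild type. That sign turned with the block (0.030).

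Genes of the integrated stress response, the program that eIF2alpha phosphorylation sets going, served as companions of the set, and 17 probe sets for 15 of the 20 listed genes were tested. In limma 3 of the 17 rose in hypoxic wild type against adeno-treated controls and none fell, where 0.322% of all probe sets passed. The list median was 0.43 against -0.02 over all. The transcription factor genes Atf3 (log2 changes of 3.003 and 1.77 from a pair of probe sets, adjusted p = 0.00359 and 0.0174) and Ddit3 (1.78, adjusted p = 0.0274) were the 3. Ddit3 averaged 85.8 in adeno-treated, 187 in untreated and 299 in hypoxic wild-type cells. Not all listed genes rose: the brighter Asns probe set averaged 1779 in adeno-treated and 1624 in hypoxic wild-type cells, and Psat1 960 and 923. With the block there were 5, adding Atf4, the central factor of the program (0.86, adjusted p = 0.00584), and the amino acid transporter gene Slc7a5 (0.89, adjusted p = 0.0289). Of all probe sets, 1.49% were higher in that fit. Slc7a5 read 846.2, 841.1 and 331.5 on hypoxic wild-type and 469.7 and 390.1 on adeno-treated arrays, so wild-type number 3 lay below both controls. Against the same controls the null-labelled cells had 3 higher, and 7 with the block. Of all probe sets, 0.429% passed in either direction without the block and 2.95% were higher with it. Null-labelled against wild type, 0 of the 17 passed in either fit. Of all 7453 probe sets, 0 passed there without the block, and 1 higher and 9 lower with it. The list median was 0.02, as over all, and Atf4 differed by 0.08 (SE 0.17). Lists of synthetase partners, termination and recycling factors, poly(A)-binding proteins, mitochondrial translation factors, hypusine and diphthamide enzymes, and signalling to translation had 0 of 5, 13, 8, 5, 2 and 12 tested probe sets past the threshold in either fit in each of the 4 comparisons.

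Eif1b encodes a close relative of eIF1, the factor that keeps scanning ribosomes from stopping at wrong codons. The sequence of the 250 bases before its annotated start and that of Eif4a2 are shown because these members had the largest changes between the hypoxic groups and in hypoxic wild type. They come from RefSeq on GRCm38.p6, Eif1b at chr9:120492356-120492605 and Eif4a2 at chr16:23107218-23107467, both on the plus strand and 5′ to 3′. Capitals mark ACGTG or GCGTG, both forms of the core that HIF binds, searched on both strands and merged where they overlap.
Eif1b: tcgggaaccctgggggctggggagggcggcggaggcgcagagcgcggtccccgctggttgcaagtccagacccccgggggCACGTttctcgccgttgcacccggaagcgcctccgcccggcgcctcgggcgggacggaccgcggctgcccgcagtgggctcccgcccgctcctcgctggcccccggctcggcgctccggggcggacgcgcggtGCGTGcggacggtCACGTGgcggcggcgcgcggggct
Eif4a2: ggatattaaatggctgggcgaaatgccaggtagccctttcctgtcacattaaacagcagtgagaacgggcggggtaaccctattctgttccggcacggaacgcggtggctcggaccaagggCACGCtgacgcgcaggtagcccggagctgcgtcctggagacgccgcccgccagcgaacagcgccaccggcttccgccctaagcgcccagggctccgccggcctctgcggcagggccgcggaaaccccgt

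The Eif1b window held 3 capital stretches, the last of them ACGTG on both strands at once, and the Eif4a2 window held 1, a GCGTG on the minus strand. Windows were given for 56 of the 71 member genes (71 windows), with none for Eif4ebp1, Eef1akmt1 and Nars among others. ACGTG was in 33.8% of member windows, in 22.3% of those of all tested genes and in 16.6% of all 32851 windows. GCGTG was in 47.9%, 44.4% and 28.2%. The median GC content was 60% in member windows, 59.6% in those of tested genes and 52.4% in all. A match is a description of the letters and not a binding site.

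Eif1b gave the largest member difference between the hypoxic groups. It read 810.4, 596.1 and 697.1 on hypoxic wild-type arrays and 422.9, 381.9 and 317.2 on null-labelled ones, with 577.2 and 461.6 on adeno-treated and 477.0 and 452.4 on untreated normoxic arrays. The null-labelled arrays were below every other array, and the hypoxic wild-type arrays were above every normoxic one. Null-labelled cells held 0.537 times the wild-type value (374 ± 53.3 against 701 ± 107, SD, n = 3 each), a log2 change of -0.90 (SE 0.18, unadjusted p = 0.000551, limma adjusted p = 0.342), and lower in 3 of 3 same-number pairs. With the replicate block the adjusted p was 0.0444, and leaving out any 1 of the 6 hypoxic arrays ended that call. Against adeno-treated controls hypoxic wild type was 0.43 (SE 0.20, adjusted p = 0.646, and 0.126 with the block) and null-labelled hypoxic -0.47 (adjusted p = 0.477, and 0.149 with the block). Of the 75 other tested members, Vars had the profile most like Eif1b over the 10 arrays, with r = 0.71, followed by Lars and Eif2b2 at 0.49 each, Eif2ak1 at 0.47 and Eif4g2 at 0.44. These arrays share groups and scaling, so the values are descriptions.

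**Figure D3:**
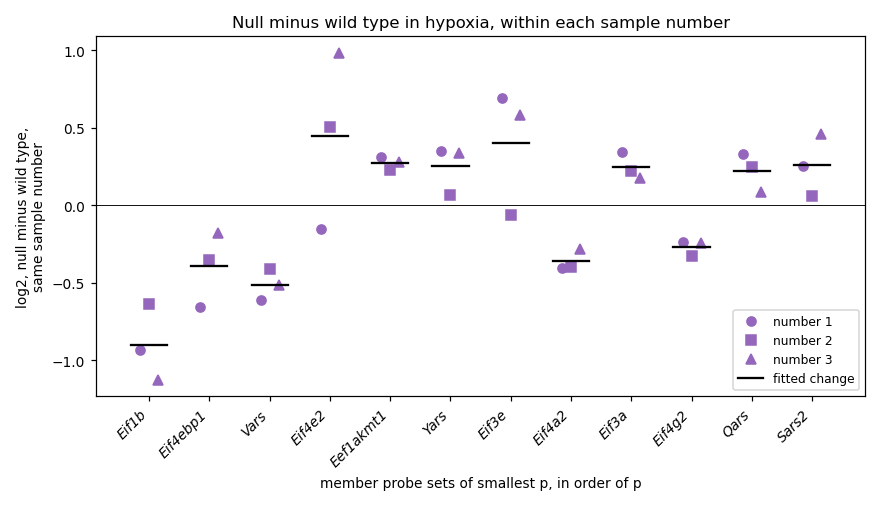
Points are the log2 difference, null-labelled minus wild type, between hypoxic arrays of the same number, for the 12 member probe sets of smallest p in that comparison, and black lines are the fitted changes. The 3 Eif1b points lie below 0, between -1.12 and -0.64, and those of Eef1akmt1 above it.

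In the remaining factors that help to select the start codon and join subunits, null-labelled and wild-type hypoxic cells differed by -0.17 to 0.16 on the log2 scale. Eif1ax, which encodes eIF1A, read 559.5, 463.7 and 383.5 on wild-type and 702.9, 458.2 and 429.9 on null-labelled arrays. Its difference of 0.16 (SE 0.22) turned to -0.062 without null-labelled number 1. Against adeno-treated arrays at 624.1 and 616.3, the hypoxic wild-type arrays were lower without overlap (-0.42, SE 0.24, adjusted p = 0.73), and a second probe set gave -0.21 with overlap. Eif1a, also a gene for eIF1A, had probe sets at 0.37 and -0.06 in that comparison (limma adjusted p = 0.779 and 0.979). Eif5, which triggers GTP hydrolysis at the start codon, read 501.6, 308.4 and 410.6 on wild-type and 378.2, 296.2 and 394.3 on null-labelled arrays (-0.17, SE 0.23), lower in 3 of 3 pairs.

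Eif5b, the GTPase that joins the subunits, was 166.4 and 134.3 on adeno-treated and 269.6, 191.4 and 172.4 on hypoxic wild-type arrays. Its hypoxic wild-type change was 0.46 (SE 0.24, adjusted p = 0.689), though the untreated arrays, at 196.6 and 201.4, lay within the hypoxic range. Eif6, which keeps the large subunit from joining early, was 2152.2 and 2405.8 against 1681.9, 2035.3 and 2137.2, with no overlap and a change of -0.23 (SE 0.17, adjusted p = 0.804). Eif5a, whose product helps stalled ribosomes along, was dim, at 27.6 and 51.7 on adeno-treated, 65.8, 68.6 and 38.2 on hypoxic wild-type and 40.5, 80.8 and 47.6 on null-labelled arrays. The 3 groups overlapped (0.50, SE 0.38, in wild type).

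The eIF3 complex, the scaffold on which the initiation factors assemble, had a median of 0.04 in hypoxic wild type against adeno-treated controls. Of its 11 tested probe sets 9 had values above 0, the range was -0.20 to 0.49 and none passed in either fit. With the block 6 of 11 were above 0, and against all 4 normoxic arrays 7 of 11. Eif3c, a core subunit, read 2255.1 and 2233.3 on adeno-treated and 2345.3, 2307.9 and 2595.2 on hypoxic wild-type arrays (log2 change 0.10, SE 0.15). Eif3j1, a loosely attached subunit, had the highest value, 0.49 (SE 0.28, adjusted p = 0.724), from 443.5 and 308.7 to 578.9, 369.0 and 660.0, with overlap. Eif3b, another core subunit, read 1081.3 and 1303.7 on adeno-treated and 989.8, 1098.6 and 1015.0 on hypoxic wild-type arrays (-0.20, SE 0.16). Eif3m, at the edge of the core, read 961.9 and 750.0 on adeno-treated, 1047.0, 877.1 and 1258.6 on hypoxic wild-type and 1172.6 and 1272.2 on untreated arrays, which again lay at the hypoxic values (0.30 against adeno-treated).

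Between the hypoxic groups, Eif3a, the largest subunit, was the member of the complex with no overlap: 144.3, 172.7 and 153.4 in wild type against 184.3, 201.9 and 174.3 in null-labelled cells, a change of 0.25 (SE 0.16, adjusted p = 0.999). For Eif3e, a peripheral subunit, the probe sets pointed apart: the dimmer read 48.4, 82.2 and 67.0 against 81.3, 78.5 and 102.5 (0.40, SE 0.25) and the brighter 242.0, 253.7 and 367.8 against 280.4, 161.7 and 295.8 (-0.25, SE 0.25), both with overlap.

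Eef1akmt1, which encodes an enzyme that methylates a lysine of the elongation factor eEF1A, was the one member lower in hypoxic wild type in the block fit. It read 218.1 and 244.8 on adeno-treated, 236.0 and 206.6 on untreated, 136.9, 129.5 and 121.3 on hypoxic wild-type and 171.4, 152.7 and 148.0 on null-labelled arrays. The 3 sets of normoxic, null-labelled and wild-type hypoxic arrays did not overlap, with the null-labelled in between. Hypoxic wild type held 0.567 times the adeno-treated value (129 ± 7.80, n = 3, against 231 ± 18.9, n = 2; SD), a log2 change of -0.82 (SE 0.17, limma adjusted p = 0.134, and 0.0485 with the block). Against all 4 normoxic arrays it fell by 0.79 on the log2 scale and passed without the block too (adjusted p = 0.0384, and 0.0285 with it), where 0.577% of all probe sets passed without the block. Against the adeno-treated arrays alone, leaving out any 1 of the 5 arrays compared ended the call with the block. Null-labelled against wild type was 0.27 (SE 0.15, adjusted p = 0.999).

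The elongation factors themselves carry aminoacyl-tRNAs to the ribosome and move it along the mRNA. In hypoxic wild type 7 of 7 probe sets of this group, Eef1akmt1 included, had values below 0, with a median of -0.22, though Eef2 was at -0.0002. With the block 5 of 7 were below 0, and against all 4 normoxic arrays 4 of 7, with a median of -0.013. Only Eef1akmt1 passed. Eef1a1, which encodes the tRNA carrier, read 8522.8 and 10595.4 on adeno-treated, 7296.5, 8819.9 and 9305.8 on hypoxic wild-type and 8448.1, 8701.1 and 9006.3 on null-labelled arrays. Its untreated arrays were lower than all others, at 6529.6 and 6711.7. The change was -0.17 against adeno-treated controls and turned to 0.088 against all 4 normoxic arrays. Eef2, the translocase, averaged 3684 ± 255 (SD, n = 2) in adeno-treated and 3680 ± 105 (SD, n = 3) in hypoxic wild-type cells. Eef1d, an exchange subunit for eEF1A, read 656.0 and 779.5 on adeno-treated, 469.2, 692.2 and 341.4 on hypoxic wild-type and 780.3, 628.5 and 308.6 on null-labelled arrays. It gave -0.57 (SE 0.38) with hypoxia, with overlap and with number 3 lowest in both hypoxic groups. Eef1b2, another exchange subunit, had probe sets at -0.37 (SE 0.31) and 0.25 (SE 0.31) between the hypoxic groups.

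The cytosolic tRNA synthetases had a median of -0.02 in hypoxic wild type, with 9 of 20 probe sets above 0. With the block the median was 0.081 and 13 of 20 were above 0, and against all 4 normoxic arrays 0.037 and 14 of 20. Nars, the asparaginyl enzyme, passed with the block alone. It read 862.5 and 758.2 on untreated, 479.5 and 411.5 on adeno-treated, 869.9, 578.9 and 566.1 on hypoxic wild-type and 721.9, 615.9 and 579.3 on null-labelled arrays. The adeno-treated arrays were below all others, and the hypoxic wild-type arrays overlapped the untreated ones. The change against adeno-treated controls was 0.56 (SE 0.22, adjusted p = 0.536, and 0.0492 with the block) in wild type and 0.51 (adjusted p = 0.475, and 0.0406 with the block) in null-labelled cells. Leaving out any 1 of the arrays compared ended both calls. Against all 4 normoxic arrays it was 0.13 in wild type (adjusted p = 0.934, and 0.688 with the block).

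Sars, the seryl enzyme, was above all 4 normoxic arrays in hypoxic wild type (519.2 to 593.4 against 372.0 to 467.5), at 0.28 against adeno-treated controls (SE 0.19, adjusted p = 0.786). Mars1, the methionyl enzyme, was 480.5 and 623.7 against 383.5, 400.7 and 547.3 (-0.32, SE 0.24), with overlap. Gars, the glycyl enzyme, was 1740.2 and 2470.5 against 1934.2, 1751.8 and 1749.0 (-0.20, SE 0.20), with overlap.

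Vars, the valyl enzyme, had the lowest change between the hypoxic groups after Eif1b, and did not pass. It read 797.7, 658.3 and 478.6 on wild-type and 520.5, 495.1 and 334.4 on null-labelled arrays, lower in each of the 3 pairs with overlapping groups (log2 change -0.51, SE 0.24, adjusted p = 0.999, and 0.245 with the block). Yars, the tyrosyl enzyme, was 353.0, 444.1 and 403.1 against 452.1, 464.6 and 510.5, with no overlap and a change of 0.25 (SE 0.15, adjusted p = 0.999), while its second probe set gave 0.02. Qars, the glutaminyl enzyme, differed by 0.22 and was higher in 3 of 3 pairs. Of the 5 members without overlap between the hypoxic groups, 4 were higher and 1, Eif1b, lower in null-labelled cells, beside 301 higher and 204 lower among all 7453.

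The mitochondrial synthetases serve the ribosomes that make the core subunits of the respiratory chain. Rars2, the arginyl enzyme, read 400.0 and 329.2 on untreated, 407.4 and 383.6 on adeno-treated, 301.0, 200.4 and 242.5 on hypoxic wild-type and 319.1, 226.6 and 207.3 on null-labelled arrays. The 6 hypoxic arrays were below the 4 normoxic ones. The log2 change against adeno-treated controls was -0.68 (SE 0.24, adjusted p = 0.467, and 0.0947 with the block) in wild type and -0.67 (adjusted p = 0.378, and 0.0736 with the block) in null-labelled cells, and the hypoxic groups, at 248 ± 50.5 and 251 ± 59.8 (SD, n = 3), overlapped. Tars2, the threonyl enzyme, was 165.4 and 183.1 on adeno-treated, 105.8 and 137.1 on untreated and 106.8, 149.9 and 145.2 on hypoxic wild-type arrays (-0.38, SE 0.25). Iars2, the isoleucyl enzyme, was 145.8 and 104.4 against 204.9, 140.2 and 147.0 (0.38, SE 0.23), and a dim probe set of Sars2, the seryl enzyme, 28.4 and 36.4 against 35.9, 65.5 and 46.5 (0.51, SE 0.30). A brighter Sars2 probe set gave 0.03 and Fars2, the phenylalanyl enzyme, -0.04. None of these passed in any of the 4 comparisons.

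**Figure D4:**
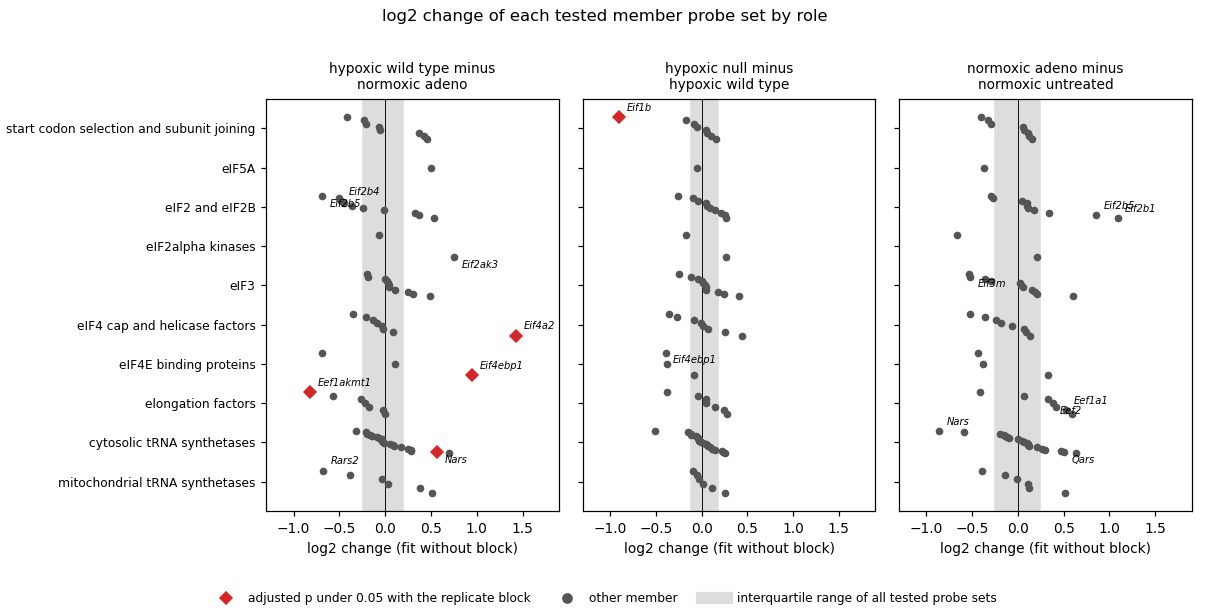
Each point is 1 tested member probe set in its role group, placed by its log2 change (fit without block) in 3 comparisons; the grey band is the interquartile range of all 7453 probe sets and red diamonds passed an adjusted p of 0.05 with the replicate block. Most members lie in or near the band.

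Adeno treatment in normoxia was compared between 2 arrays a side, and no member passed. The elongation factors, with Eef1akmt1 included, stood highest as a group, with 6 of 7 probe sets above 0 and a median of 0.38 (-0.01 over all). The Eef1b2 probe sets among them pointed apart, at 0.60 and -0.42. Eef1a1 was 0.52 higher (SE 0.16, adjusted p = 0.5, and 0.0738 with the block), a value that turned to -0.011 under quantile normalization. Eef2, at 2869.6 and 2788.1 on untreated and 3864.2 and 3502.9 on adeno-treated arrays, gave 0.38 (SE 0.17, adjusted p = 0.601).

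Of single genes, Eif2b1, the alpha subunit of eIF2B, had the largest difference: 287.5 and 154.6 on untreated against 415.5 and 495.8 on adeno-treated arrays, a log2 change of 1.09 (SE 0.29, adjusted p = 0.498, and 0.0822 with the block). It passed with the block once untreated number 1 was left out. The hypoxic wild-type arrays read 282.2, 374.9 and 411.3, between the normoxic groups or overlapping the untreated one. Nars was -0.86 (SE 0.24, adjusted p = 0.498, and 0.0553 with the block) and the dimmer Eif2b5 probe set 0.86 (SE 0.29, adjusted p = 0.511), while the brighter gave 0.11. Eif3m was -0.52 (SE 0.21, adjusted p = 0.567) and Qars 0.50 (SE 0.22, adjusted p = 0.571). For Nars, the dimmer Eif2b5 probe set, Eif2b1 and Eif2ak3, hypoxic wild-type arrays overlapped the untreated ones, so their differences from adeno-treated controls went together with a difference between the normoxic groups.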

How the data were processed

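The files hold intensity per probe set on a linear scale, as deposited by the authors, 1 array per sample. The authors had already scaled the arrays: trimmed means (lowest and highest 2% left out) came to 199.6 to 200.0 on all 10. The sources used here do not say how scans became these values. The number of arrays limits the precision.

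An offset of 4.7, which is the 10th percentile of the whole table, was added before taking log2. Folds therefore refer to value plus 4.7 and understate changes of dim probe sets, while group means are of the intensities themselves. Leaving out 66 controls and whatever lay below the 40th percentile of mean log2 gave 7453 probe sets. Fits used lmFit on 4 group means over 10 arrays and eBayes with trend (limma 3.58.1, R 4.3.3). They had 6 residual degrees of freedom, or 4 with the replicate block. For results against all 4 normoxic arrays, a separate fit merged the untreated and adeno-treated arrays into the same group. Its residual degrees of freedom differed, and the difference between the normoxic groups entered its spread. That control was in part without adeno, unlike the hypoxic wild-type arrays. Tests were 2-sided, with Benjamini-Hochberg adjustment across the 7453, and every adjusted p is from limma. The code was tested on simulated data.

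Pairing was checked on deviations from group means. The 13 pairs of arrays with the same number in different groups correlated at 0.11 to 0.68, each above 0.1, and the numbers were read as pairing samples. Hypoxic arrays of the same number correlated at 0.54 to 0.68, but normoxic number 2 did not single out hypoxic number 2. Untreated number 2 gave 0.11 and 0.15 with wild-type numbers 2 and 3, and 0.16 and 0.25 with the null-labelled ones. Adeno-treated number 2 gave 0.18 and 0.17, then 0.13 and 0.19. In groups of 2 arrays the deviations mirror each other, so the pairs are not separate checks. The normoxic groups hold no number 3, so block changes of hypoxic against normoxic arrays draw on number 3 only through null-labelled minus wild type. Symbols came from the platform's annotation, and all 71 matched GRCm38.p6. Probe sets whose names end in f, g, i, r or s may bind related transcripts.

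The members, roles and companion lists were chosen with earlier results of these data known. The rule for named members takes those past the threshold in either fit, Eif1b, the 3 of smallest p per role in hypoxic wild type against adeno-treated and in null-labelled against wild type, and the brightest per role, and for companions those past the threshold. Others (Eif4a1, Eif1a, Eif2b1, Eef2, and the companions Asns and Psat1) lay outside this rule and were chosen after their values were seen. Alternatives were other offsets, filters and variance models, quantile normalization, the block, left-out arrays and all 4 normoxic arrays as control.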

Additional observations from a re-analysis of the deposited data

How the results depend on the processing

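Without the block, the count of members past the threshold stayed at 0 in each comparison under other offsets, filters, variance model, quantile normalization and leaving out any array (range 0 to 0). With the replicate block it was 4 in hypoxic wild type against adeno-treated controls, 1 in null-labelled against wild type and 2 in null-labelled against adeno-treated controls. With the block and quantile normalization these were 2, 1 and 1, and with the block and no number 3 arrays the first was 2. Against all 4 normoxic arrays hypoxic wild type gave 1, and 3 with the block, and null-labelled cells 1 with the block. Leaving out 1 array each with the block gave 0 to 2 in the first comparison, 0 to 0 in the second, 0 to 1 in the third and 0 to 1 (Eif2b1, without untreated number 1) for adeno treatment. Eif4a2 was lost in the first without adeno-treated number 2 or wild-type number 2, and Nars and Eef1akmt1 without any 1 array.

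The median change of members in null-labelled against adeno-treated cells was -0.057 with a 60th percentile filter, 0.026 without number 3 arrays, and 0.031 against all normoxic arrays, where hypoxic wild type had 0.026. Leaving out 1 array gave medians of -0.030 to 0.0087 (hypoxic wild type), -0.023 to 0.040 (null-labelled against wild type), -0.069 to 0.037 (null-labelled against adeno-treated) and 0.0081 to 0.077 (adeno-treated against untreated).

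Alternative values of single members were kept for those with unadjusted p under 0.05, passing with the block, or of smallest p in their role. Of these 1017 values, 975 kept their direction and side of the threshold, 22 newly passed and 20 turned sign. No member passed in the fit without a block, so keeping the side meant still not passing. The count is thus no measure of how stable the members were. Eif2ak1 in hypoxic wild type turned to 0.030 with the block, 0.018 without number 3 and 0.034 against all normoxic arrays, Eif4e2 to 0.0096 without number 3, and Eef1a1 to 0.088 against all normoxic arrays and, for adeno treatment, to -0.011 under quantile normalization. Leaving out 1 array gave, in hypoxic wild type, Eif2ak1 -0.14 to 0.018, Eif4e2 -0.49 to 0.0096 and Eif4ebp2 -0.22 to 0.43 (dimmer probe set). In null-labelled against wild type it gave Eif1ax -0.062 to 0.29, Eif2b2 -0.48 to 0.024, Eif3e -0.40 to 0.026, Eif4ebp2 -0.72 to 0.0057 and -0.18 to 0.079, Eif5a -0.32 to 0.14 and Tars2 -0.058 to 0.28. The cause was not tested.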
